A study of Homo sapiens with 12 samples.

Results

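Messages of 52 mitosis and spindle genes, of 12756 genes tested, were followed in HCT116, a human colorectal carcinoma cell line, after knockout of genes of a microRNA pathway. The 52 were taken by name from a list of cyclins, mitotic kinases, checkpoint, kinetochore, kinesin, spindle and chromosome genes, and all 52 were present in each of 3 tables of fold changes. The groups were an ANKRD52 and CSNK1A1 double knockout, an ANKRD52 knockout, an AGO2 knockout and the parental line, with 3 labelled replicates each and polyA RNA taken 48 hours after seeding. The labels do not say whether a knockout line is 1 clone. By label, the double knockout and the ANKRD52 knockout share the loss of ANKRD52 and differ in CSNK1A1. AGO2 is an Argonaute protein that carries microRNAs, ANKRD52 belongs to the PP6 phosphatase complex, and CSNK1A1 encodes casein kinase 1 alpha. The study's title names a cycle of Argonaute phosphorylation in silencing by microRNAs. Per-sample values were not analysed here, so the depth and spread of single libraries are unknown and each value below compares groups.

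Mitosis is driven by cyclin B bound to the kinase CDK1, which CDC25 phosphatases switch on. Kinetochores then tie chromosomes to spindle microtubules, and the spindle checkpoint restrains the anaphase-promoting complex (APC/C) until all are attached, when CDC20 activates it to destroy securin and cyclin B. Messages of these genes peak late in the cell cycle, and their promoters are known for a cell cycle genes homology region (CHR), used by the DREAM and MYBL2 complexes, and for CCAAT boxes bound by NF-Y.

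The promoter windows of the 5 members with the largest called falls in the double knockout are shown, with the matches to these elements. They run from 250 bases before to 50 bases after a RefSeq start in GRCh38.p14. The windows lie at chr5:138331828-138332127 on the minus strand for CDC25C, chr1:43358731-43359030 on the plus strand for CDC20 and chr5:163460382-163460681 on the plus strand for HMMR. Those of BUB1 and CCNB1 lie at chr2:110678014-110678313 on the minus strand and chr5:69166900-69167199 on the plus strand. CDC25C has 4 listed starts, and the first with a CHR match is shown. Capitals mark matches on either strand to the CHR (TTTGAA or TTCGAA) and to the CCAAT box (CCAAT).
CDC25C: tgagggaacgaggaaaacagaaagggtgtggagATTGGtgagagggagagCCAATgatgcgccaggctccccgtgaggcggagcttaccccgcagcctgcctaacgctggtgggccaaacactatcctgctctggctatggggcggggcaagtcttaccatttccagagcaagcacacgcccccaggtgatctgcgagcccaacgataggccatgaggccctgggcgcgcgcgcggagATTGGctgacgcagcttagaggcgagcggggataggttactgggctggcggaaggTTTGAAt
CDC20: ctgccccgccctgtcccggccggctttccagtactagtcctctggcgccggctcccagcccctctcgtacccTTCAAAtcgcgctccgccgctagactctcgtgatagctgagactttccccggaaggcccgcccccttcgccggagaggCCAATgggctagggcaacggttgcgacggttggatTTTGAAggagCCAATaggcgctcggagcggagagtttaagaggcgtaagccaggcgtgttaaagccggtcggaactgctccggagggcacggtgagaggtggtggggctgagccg
HMMR: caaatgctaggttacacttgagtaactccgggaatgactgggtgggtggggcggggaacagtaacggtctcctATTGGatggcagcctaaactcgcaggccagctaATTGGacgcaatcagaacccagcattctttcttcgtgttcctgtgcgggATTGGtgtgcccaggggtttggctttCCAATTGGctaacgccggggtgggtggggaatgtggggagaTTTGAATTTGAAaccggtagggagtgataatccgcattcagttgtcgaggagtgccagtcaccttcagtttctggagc
BUB1: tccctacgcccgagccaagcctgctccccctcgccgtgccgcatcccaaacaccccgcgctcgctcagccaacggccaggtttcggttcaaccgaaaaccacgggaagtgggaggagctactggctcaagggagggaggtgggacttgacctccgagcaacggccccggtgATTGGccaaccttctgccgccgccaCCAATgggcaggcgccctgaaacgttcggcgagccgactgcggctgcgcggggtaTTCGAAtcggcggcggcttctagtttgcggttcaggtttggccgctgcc
CCNB1: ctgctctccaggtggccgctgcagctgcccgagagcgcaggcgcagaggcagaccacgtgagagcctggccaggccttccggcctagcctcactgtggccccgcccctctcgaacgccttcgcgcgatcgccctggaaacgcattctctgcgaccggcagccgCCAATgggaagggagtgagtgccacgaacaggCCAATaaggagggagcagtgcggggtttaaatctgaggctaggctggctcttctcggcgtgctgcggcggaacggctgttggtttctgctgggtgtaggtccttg
CHR and CCAAT matches numbered 1 and 3 for CDC25C, 2 and 2 for CDC20, 2 and 5 for HMMR, 1 and 2 for BUB1, and 0 and 2 for CCNB1. Matches that adjoin or overlap read as 1 capital run.

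By symbol, 45 of the 52 members matched the RefSeq promoter table, and FOXM1, AURKA, BUB3, TTK, UBE2C, BIRC5 and TPX2 had no entry. A CHR match was found in at least 1 listed start of 35 of the 45 (77.8%), against 15% of the 9319 matched genes of the tables. CCAAT boxes were found in 36 members (80%), against 43.3% of those genes. Both elements occurred in the same window in 27 members (60%), against 6.25% of genes. E2F sites (TTTGGCGC or TTTCCCGC, either strand) were found in 2 members (4.44%), against 4.7% of genes and 14 of 25 replication and licensing genes. Of those 25 genes 2 had a CHR match. Over all 35116 windows of the table the shares were 16.4% for the CHR, 34.6% for the CCAAT box and 2.27% for E2F. In the members' 59 windows, 28 of 51 CHR and 55 of 83 CCAAT matches began in the last 100 bases before the start, and 12 CHR matches and 1 CCAAT match began after it. Windows of one gene can overlap, so a site can be counted in several windows, also on both sides of a start, and the matches stand for 49 CHR and 78 CCAAT sites.

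**Figure D1:**
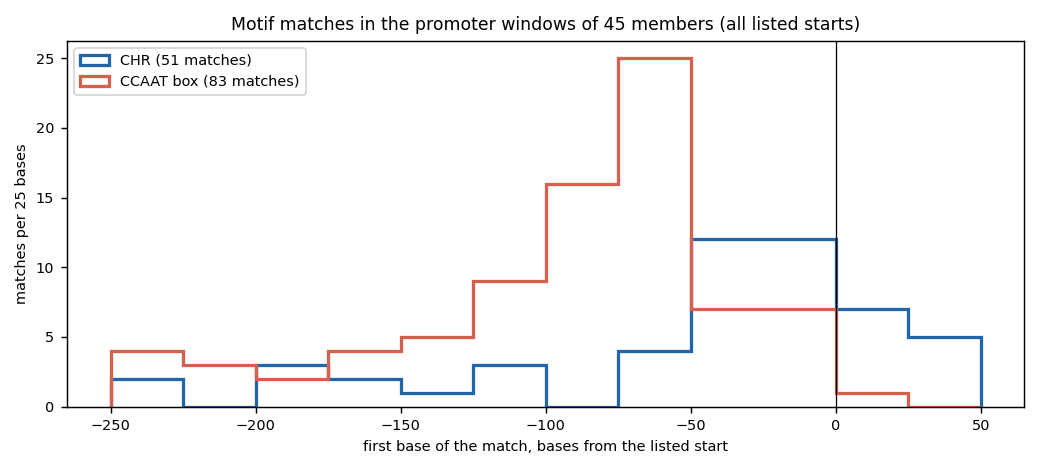
Matches per bin (vertical axis) by distance of the first base of the match from the listed start, in bases (horizontal axis), for the CHR and the CCAAT box in the 59 windows of 45 members. Most matches of both kinds begin in the last 100 bases before the start, 28 of 51 for the CHR and 55 of 83 for the CCAAT box, with a site counted in each window that holds it.

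The labels were checked on the targeted genes. CSNK1A1 fell by 2.42 (adjusted p = 1.71e-10) and ANKRD52 by 0.65 (adjusted p = 2.32e-05) in the double knockout, per the authors' deposited table. ANKRD52 stood at 0.03 (adjusted p = 0.915) in the libraries labelled ANKRD52 knockout, per the authors' deposited table, and since an edit need not lower a message, this value does not check that label. AGO2 fell by 1.07 (adjusted p = 0.0477) in the AGO2 knockout, where ANKRD52 rose by 0.85, per the authors' deposited table.

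In the double knockout 25 of 52 members fell, 1 rose and 26 were not called at the authors' adjusted p under 0.05. CDC25C, CDC20 and HMMR fell most. The called falls ran from 14.9% to 41.8% with a median of 21.6%. Among all genes 20.1% were called lower and 22.9% higher, against 48.1% of the members called lower. Members are abundant messages, 47 of 52 with a mean log2 CPM (read counts scaled to library size) of 6 or more. Among the 4071 genes at that level 24.6% were called lower and 22.0% higher. The median log2 fold change was -0.20 for the members and 0.01 for all genes. When the authors' statistic was read against an F distribution instead, 16 members were lower and 0 higher. The falls lost by this reading were those of CCNB2, PLK4, NEK2, BUB1B, PTTG1, KIF11, INCENP, PRC1 and NCAPH. All of them but INCENP were also lost at an adjusted p under 0.01. In bulk RNA, fewer cells in mitosis and less message per cell cannot be told apart.

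**Figure D2:**
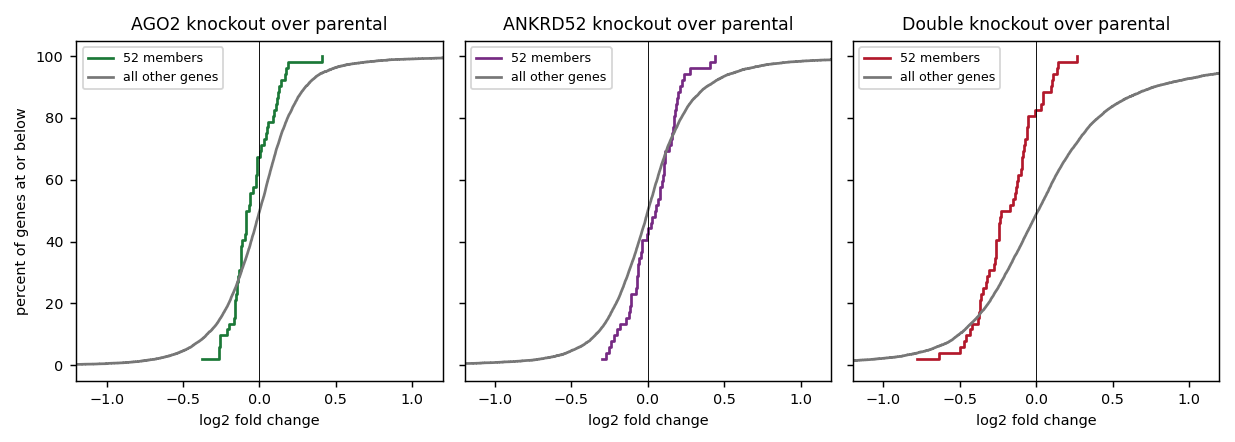
Percent of genes at or below each log2 fold change over parental (horizontal axes, cut at both ends) for the 52 members and for the other genes, in the AGO2, ANKRD52 and double knockouts. The members' curve lies left of the other genes in the double knockout (median -0.20) and near 0 in the AGO2 and ANKRD52 knockouts (medians -0.08 and 0.05).

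Of 7 genes of the cyclin and CDK1 engine 4 fell in the double knockout, both B-type cyclins of the list among them. CDC25C, the phosphatase that activates CDK1 at mitotic entry, stood at an implied 8.39 CPM in the double knockout, 12.7 in the ANKRD52 knockout, 13.3 in the AGO2 knockout and 14.4 in parental cells. Implied levels were rebuilt from the authors' mean CPM and 3 fold changes, taking the 4 groups as equal in weight. CDC25C fell by 0.78 log2 units (approximate SE 0.17) with an adjusted p of 3.68e-05 per the authors' deposited table. The double knockout was the lowest of the groups.

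CCNB1, the cyclin B1 gene, stood at an implied 167 CPM in the double knockout, 213 in the ANKRD52 knockout, 205 in the AGO2 knockout and 229.8 in parental cells. CCNB1 fell by 0.46 log2 units (approximate SE 0.09) with an adjusted p of 9.92e-07 per the authors' deposited table. CCNA2, the cyclin A2 gene that acts from S phase to early mitosis, stood at an implied 129 CPM in the double knockout, 181 in the ANKRD52 knockout, 192 in the AGO2 knockout and 174 in parental cells. Its point estimates in both single knockouts lay above the parental level, and the double knockout lay below it. CCNA2 fell by 0.43 log2 units (approximate SE 0.09) with an adjusted p of 3.32e-06 per the authors' deposited table. CCNB2, the other B-type cyclin of the list, fell by 0.24 (adjusted p = 0.0214), per the authors' deposited table. Their partner CDK1 was not called, with an implied 164 CPM in the double knockout, 160.1 in the ANKRD52 knockout, 162 in the AGO2 knockout and 173 in parental cells, and stood at -0.07 (adjusted p = 0.608) per the authors' deposited table. FOXM1, a transcription factor that activates many of these genes, stood at 0.04 (adjusted p = 0.734) and CDC25B, a relative of CDC25C, at 0.13 (adjusted p = 0.406), per the authors' deposited table.

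All 4 members grouped as mitotic kinases fell in the double knockout. The kinases CDK1, AURKB, BUB1 and TTK were placed in other role groups, and CDK1 was not called. PLK1, which acts on centrosomes and kinetochores, stood at an implied 163 CPM in the double knockout, 202 in the ANKRD52 knockout, 189 in the AGO2 knockout and 209 in parental cells. PLK1 fell by 0.36 log2 units (approximate SE 0.09) with an adjusted p of 0.000524 per the authors' deposited table. AURKA, the Aurora kinase of spindle poles, stood at an implied 87.1, 115, 113 and 113 CPM in double, ANKRD52, AGO2 and parental cells, so that the double knockout alone stood apart in these point estimates. AURKA fell by 0.37 log2 units (approximate SE 0.09) with an adjusted p of 0.000354 per the authors' deposited table. NEK2, a centrosome kinase, fell by 0.28 (adjusted p = 0.0195) and PLK4, which starts centriole duplication, by 0.24 (adjusted p = 0.03), per the authors' deposited table. The calls of NEK2 and PLK4 were lost at an adjusted p under 0.01 and with the F distribution.

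**Figure D3:**
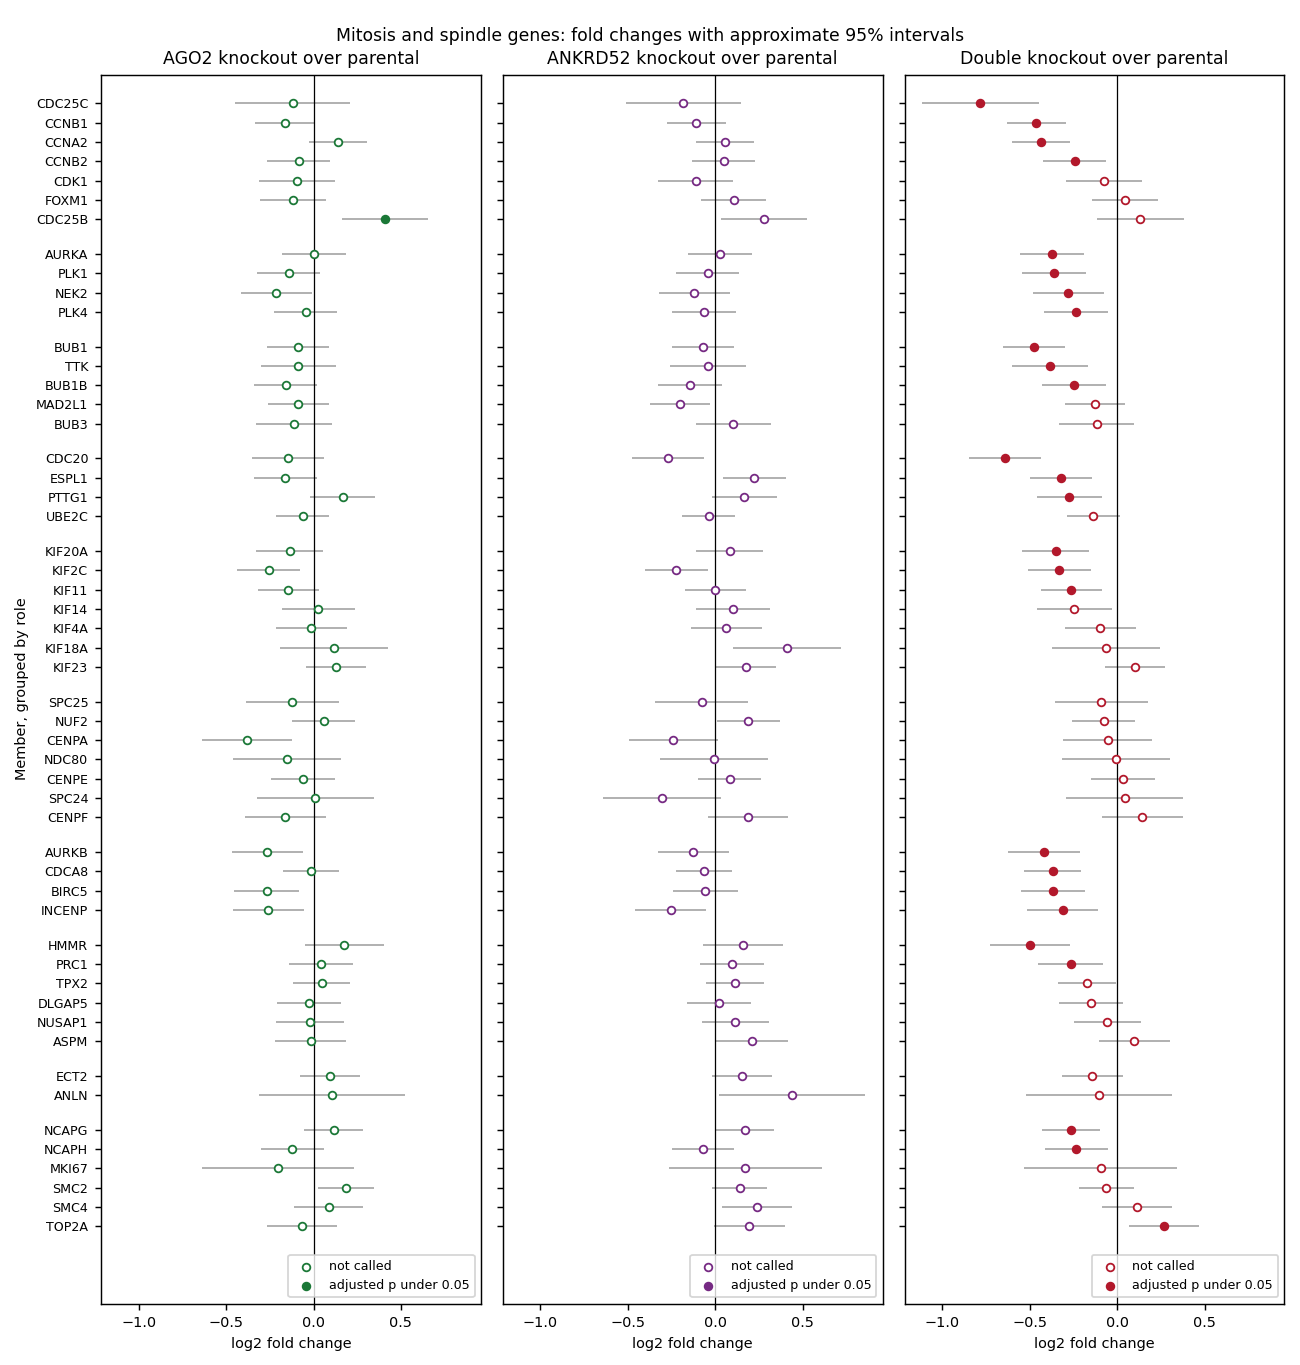
Log2 fold change over parental (horizontal axes) of the 52 members, in blocks by role, in the AGO2, ANKRD52 and double knockouts, with approximate 95% intervals as bars and filled points at an adjusted p under 0.05. The double knockout panel holds 25 filled points left of 0 and 1 right of it, the AGO2 panel 1 right of 0 and the ANKRD52 panel none.

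Of 5 spindle checkpoint genes 3 fell. BUB1, a kinase that recruits the checkpoint to kinetochores, stood at an implied 164, 216, 214 and 227 CPM in double, ANKRD52, AGO2 and parental cells. BUB1 fell by 0.47 log2 units (approximate SE 0.09) with an adjusted p of 1.77e-06 per the authors' deposited table. TTK, the MPS1 kinase that starts the checkpoint signal, stood at an implied 105, 133, 129 and 137 CPM in double, ANKRD52, AGO2 and parental cells. Both were lowest in the double knockout. TTK fell by 0.38 log2 units (approximate SE 0.11) with an adjusted p of 0.00226 per the authors' deposited table. BUB1B, the BUBR1 gene, fell by 0.25, while MAD2L1 and BUB3, which act with it against CDC20, stood at -0.13 (adjusted p = 0.245) and -0.12 (adjusted p = 0.398), per the authors' deposited table.

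Of 4 genes of mitotic exit 3 fell. CDC20, the activator of the APC/C, stood at an implied 138 CPM in the double knockout, 177 in the ANKRD52 knockout, 194 in the AGO2 knockout and 214 in parental cells. CDC20 fell by 0.64 log2 units (approximate SE 0.11) with an adjusted p of 2.13e-08 per the authors' deposited table, and no other member had a smaller adjusted p. ESPL1, the separase that cuts cohesin, fell by 0.32 and PTTG1, the securin that restrains it, by 0.27, per the authors' deposited table. PTTG1 has near-identical copies in the genome, so its value is uncertain. UBE2C, the ubiquitin-conjugating enzyme of the APC/C, stood at -0.14 (adjusted p = 0.149), per the authors' deposited table.

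All 4 genes of the chromosomal passenger complex, which corrects wrong attachments and guides cytokinesis, fell. AURKB, its kinase, stood at an implied 57.4, 70.3, 63.9 and 76.7 CPM in double, ANKRD52, AGO2 and parental cells. AURKB fell by 0.42 log2 units (approximate SE 0.10) with an adjusted p of 0.000348 per the authors' deposited table. BIRC5, the survivin gene, stood at an implied 191, 236, 204 and 246 CPM in double, ANKRD52, AGO2 and parental cells. For both genes the ANKRD52 and AGO2 knockouts lay between the double knockout and parental cells. BIRC5 fell by 0.37 log2 units (approximate SE 0.09) with an adjusted p of 0.000543 per the authors' deposited table. CDCA8, the borealin gene, stood at an implied 89.4, 111, 114 and 116 CPM in double, ANKRD52, AGO2 and parental cells. CDCA8 fell by 0.37 log2 units (approximate SE 0.08) with an adjusted p of 4.41e-05 per the authors' deposited table. The scaffold INCENP fell by 0.31 per the authors' deposited table (adjusted p = 0.00885), a call lost with the F distribution.

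Of the 7 members grouped as centromere and kinetochore genes, 0 were called in either direction in the double knockout by the authors' edgeR test. The count was also 0 of 7 at an unadjusted p under 0.05 and 0 of 7 with the F distribution. Among all genes 20.1% were called lower and 22.9% higher. Members of other role groups also act at kinetochores or centromeres, such as BUB1 and KIF2C, and both of these fell. The 7 ran from SPC25, of the NDC80 complex, at -0.09 to CENPF, a large kinetochore protein, at 0.14, per the authors' deposited table. Between them lay NUF2 (-0.08), NDC80 (-0.01) and SPC24 (0.04) of the NDC80 complex, the centromeric histone CENPA (-0.05) and the motor CENPE (0.03), per the authors' deposited table. SPC24, CENPA, SPC25 and NUF2 had a mean log2 CPM of 3.32, 4.59, 5.52 and 5.79. Approximate SEs were 0.17 for SPC24, 0.16 for NDC80, 0.14 for SPC25 and 0.13 for CENPA. They were 0.12 for CENPF and 0.09 for CENPE and NUF2, with a median of 0.10 over the members. The approximate 95% intervals of SPC25 (-0.36 to 0.18) and NDC80 (-0.31 to 0.30) hold falls of a size called elsewhere, such as NCAPH (-0.23). Role groups were not tested against each other.

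Of 7 kinesins 3 fell. KIF20A, which works in cytokinesis, fell by 0.35, KIF2C, a microtubule depolymerase at centromeres, by 0.33, and KIF11, which pushes spindle poles apart, by 0.26, per the authors' deposited table. KIF14 stood at -0.24 (adjusted p = 0.055), KIF23, the motor of centralspindlin, at 0.10, KIF4A at -0.10 and KIF18A at -0.06 per the authors' deposited table. KIF4A has a near-identical copy, so its value is uncertain.

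Of 6 spindle assembly factors 2 fell, HMMR and PRC1. HMMR, a microtubule-binding protein of spindle poles, stood at an implied 101 CPM in the double knockout, 158 in the ANKRD52 knockout, 160.4 in the AGO2 knockout and 142 in parental cells. HMMR fell by 0.50 log2 units (approximate SE 0.12) with an adjusted p of 0.000115 per the authors' deposited table. Its point estimates in both single knockouts lay above the parental level. PRC1, which bundles midzone microtubules, fell by 0.27 per the authors' deposited table. TPX2 (-0.17), DLGAP5 (-0.15), NUSAP1 (-0.06) and ASPM (0.10) were not called, and neither were the furrow genes ECT2 (-0.14) and ANLN (-0.10, approximate SE 0.21), per the authors' deposited table.

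Of 6 chromosome genes 2 fell, 1 rose and 3 were not called. The condensin I genes NCAPG and NCAPH fell by 0.26 and 0.23, while the condensin core genes SMC2 and SMC4 stood at -0.06 and 0.11, per the authors' deposited table. TOP2A, the topoisomerase that untangles sister chromatids, was the 1 member that rose. It stood at an implied 381 CPM in the double knockout, 362 in the ANKRD52 knockout, 302 in the AGO2 knockout and 316 in parental cells. Its log2 fold change was 0.27 per the authors' deposited table (approximate SE 0.10, adjusted p = 0.0253), a call lost at an adjusted p under 0.01 and with the F distribution. MKI67, the Ki-67 gene, stood at -0.09 per the authors' deposited table, and its approximate SE of 0.22 was the widest of the 52.

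**Figure D4:**
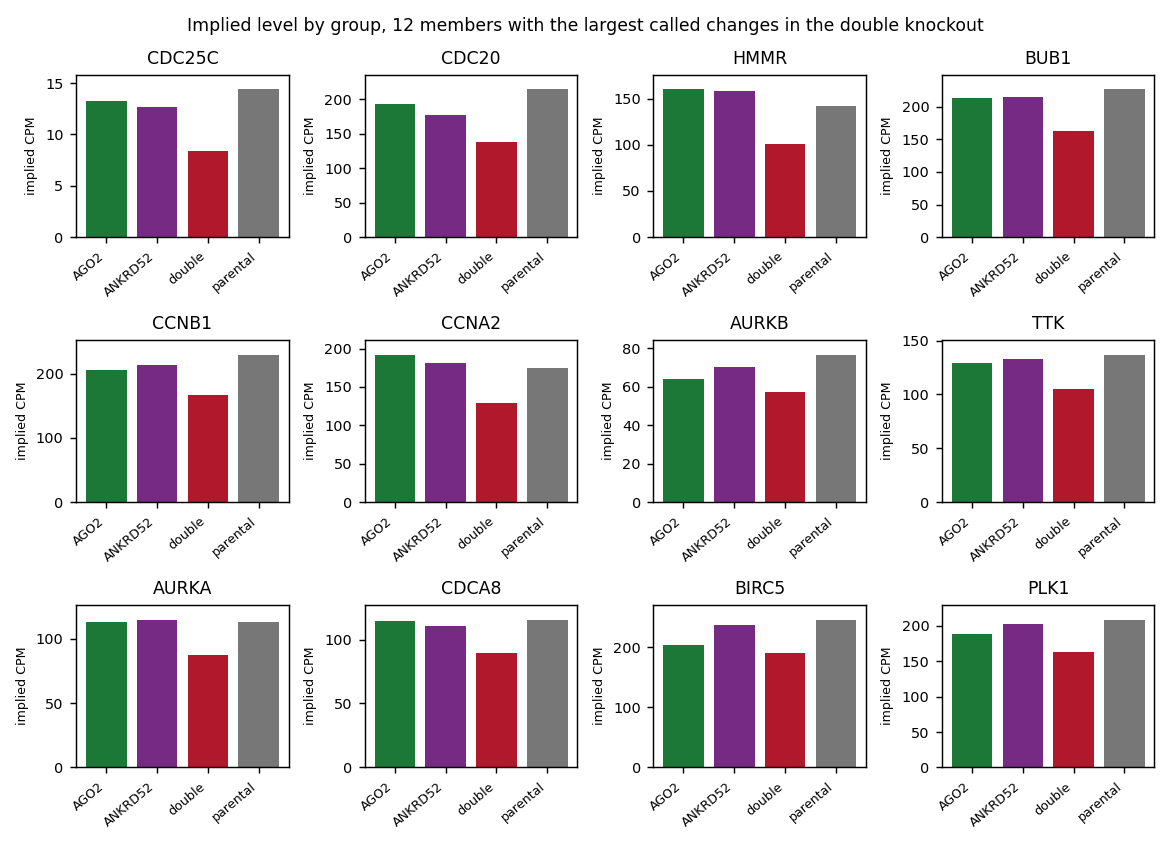
Implied CPM (vertical axes, from 0) in the AGO2, ANKRD52 and double knockouts and in parental cells for the 12 members with the largest called changes in the double knockout. Bars are group values without error bars, and the double knockout is the lowest in all 12 panels.

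In the ANKRD52 knockout 0 of 52 members were called in either direction by the authors' edgeR test, where 6.04% of all genes were called lower and 7.62% higher. Among genes of a mean log2 CPM of 6 or more, 5.97% were lower and 9.73% higher. At an unadjusted p under 0.05 there were 4 lower and 9 higher members, and with the F distribution 0 were called. The median log2 fold change was 0.05. Nearest to a call were CDC20 at -0.27 (adjusted p = 0.0618) and KIF18A, a motor that limits kinetochore microtubule length, at 0.41 (adjusted p = 0.0634), per the authors' deposited table. The role groups ranged from CDC25C (-0.18) to CDC25B (0.28) in the cyclin and CDK1 engine, from NEK2 (-0.12) to AURKA (0.03) among kinases and from MAD2L1 (-0.20) to BUB3 (0.10) in the checkpoint, per the authors' deposited table. They ranged from CDC20 (-0.27) to ESPL1 (0.22) at mitotic exit, from KIF2C (-0.22) to KIF18A (0.41) among kinesins and from SPC24 (-0.30) to NUF2 (0.19) at the kinetochore per the authors' deposited table. The remaining groups ranged from INCENP (-0.25) to BIRC5 (-0.06) in the passenger complex, from DLGAP5 (0.02) to ASPM (0.21) among assembly factors, from ECT2 (0.15) to ANLN (0.44) at the furrow and from NCAPH (-0.07) to SMC4 (0.24) among chromosome genes, per the authors' deposited table.

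In the AGO2 knockout 1 of 52 members rose and 0 fell by the authors' edgeR test, where 2.72% of all genes were called lower and 3.38% higher. Among genes of a mean log2 CPM of 6 or more, 2.51% were lower and 4.84% higher. At an unadjusted p under 0.05 there were 6 lower and 2 higher members, and with the F distribution 0 were called. The member that rose was CDC25B, a phosphatase that activates cyclin-dependent kinases in G2. CDC25B stood at an implied 269 CPM in the double knockout, 298 in the ANKRD52 knockout, 326 in the AGO2 knockout and 245 in parental cells. Its log2 fold change was 0.41 (approximate SE 0.13, adjusted p = 0.028), per the authors' deposited table. The call of CDC25B was lost at an adjusted p under 0.01 and with the F distribution. Nearest to a call below 0 were CENPA at -0.38 (adjusted p = 0.0566), BIRC5 at -0.27 (adjusted p = 0.0637) and KIF2C at -0.26 (adjusted p = 0.0691), per the authors' deposited table. The median log2 fold change was -0.08.

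Within the role groups the AGO2 knockout ranged from CCNB1 (-0.16) to CDC25B (0.41) in the cyclin and CDK1 engine, from NEK2 (-0.21) to AURKA (0.00) among kinases and from BUB1B (-0.16) to TTK (-0.09) in the checkpoint, per the authors' deposited table. It ranged from ESPL1 (-0.16) to PTTG1 (0.17) at mitotic exit, from KIF2C (-0.26) to KIF23 (0.13) among kinesins and from CENPA (-0.38) to NUF2 (0.06) at the kinetochore, per the authors' deposited table. All 4 genes of the passenger complex had point estimates below 0, from BIRC5 (-0.27) to CDCA8 (-0.02) per the authors' deposited table. Assembly factors ranged from DLGAP5 (-0.03) to HMMR (0.18) and furrow genes from ECT2 (0.10) to ANLN (0.11) per the authors' deposited table, and chromosome genes from MKI67 (-0.20) to SMC2 (0.19) there.

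Set against the ANKRD52 knockout, the double knockout had 26 of 52 members lower and 0 higher, where 15.7% of all genes were lower and 18.5% higher. The value compared is the difference of log2 fold changes, in which the parental level drops out. At an unadjusted p under 0.05 there were 27 lower and 1 higher, and with a t distribution 16 and 0. The median difference was -0.24 for the members and 0.00 for all genes. Among genes of a mean log2 CPM of 6 or more, 20.6% were lower and 15.7% higher. The smallest adjusted p-values were those of HMMR, ESPL1 and CCNA2. HMMR differed by -0.66 (approximate 95% interval -0.88 to -0.43, adjusted p = 2.36e-07). ESPL1 differed by -0.54 (-0.72 to -0.37, adjusted p = 3.94e-08) and CCNA2 by -0.49 (-0.66 to -0.32, adjusted p = 1.21e-07). These genes serve spindle poles, sister separation and cyclin-dependent kinase activity. ESPL1 stood at an implied 79.9 CPM in the double knockout, 116 in the ANKRD52 knockout, 89.2 in the AGO2 knockout and 99.7 in parental cells, highest in the ANKRD52 knockout.

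The other lower members against the ANKRD52 knockout, by the difference of log2 fold changes, were CDC25C (-0.60), ANLN (-0.54), KIF18A (-0.47), PTTG1 (-0.44), KIF20A (-0.43), NCAPG (-0.43), BUB1 (-0.40), AURKA (-0.40), CDC20 (-0.37), PRC1 (-0.36), CCNB1 (-0.35) and KIF14 (-0.35). Smaller differences were found for TTK (-0.34), PLK1 (-0.32), BIRC5 (-0.31), CDCA8 (-0.31), ECT2 (-0.29), AURKB (-0.29), CCNB2 (-0.29), TPX2 (-0.28), NUF2 (-0.27), KIF11 (-0.26) and SMC2 (-0.20). For ANLN, ECT2, KIF14, KIF18A, NUF2, SMC2 and TPX2 the double knockout itself was not called against parental. NEK2 (-0.16, interval -0.36 to 0.04), PLK4 (-0.17, -0.35 to 0.01), BUB1B (-0.10, -0.28 to 0.08), KIF2C (-0.11, -0.29 to 0.07), INCENP (-0.06, -0.26 to 0.15) and NCAPH (-0.16, -0.34 to 0.02) were called against parental but not in this difference, which does not show equal levels. CDK1 differed by 0.04 (interval -0.18 to 0.25). With the sum in place of the mean of the squared errors, 11 members were lower.

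**Figure D5:**
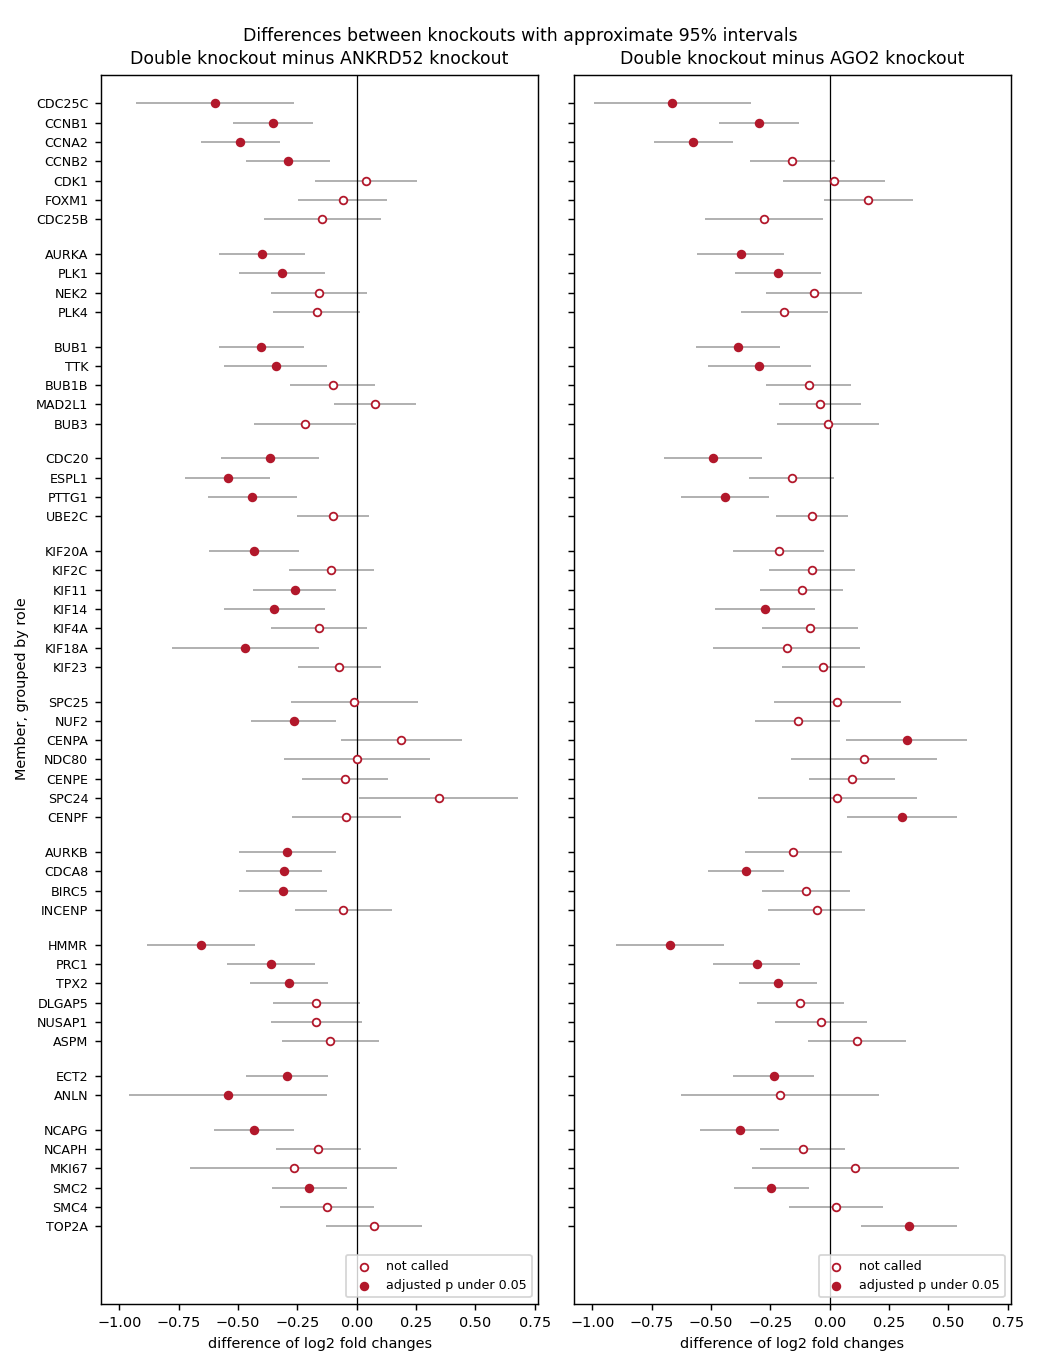
Difference of log2 fold changes (horizontal axes) of the double knockout minus the ANKRD52 knockout and minus the AGO2 knockout for the 52 members, with approximate 95% intervals as bars and filled points at an adjusted p under 0.05. Against the ANKRD52 knockout 26 filled points lie below 0 and 0 above, and against the AGO2 knockout 17 lie below and 3 above.

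Set against the AGO2 knockout, the double knockout had 17 of 52 members lower and 3 higher, where 20.0% of all genes were lower and 22.3% higher. Among genes of a mean log2 CPM of 6 or more, 26.3% were lower and 18.1% higher. Whether the members' share differs from these was not tested. HMMR differed by -0.67 (interval -0.90 to -0.45), CDC25C by -0.66 (-0.99 to -0.33), CCNA2 by -0.58 (-0.74 to -0.41) and CDC20 by -0.49 (-0.70 to -0.29). Other lower members were PTTG1 (-0.44), BUB1 (-0.39), NCAPG (-0.38), AURKA (-0.38), CDCA8 (-0.35), PRC1 (-0.31), CCNB1 (-0.30), TTK (-0.30), KIF14 (-0.27), SMC2 (-0.25), ECT2 (-0.24), PLK1 (-0.22) and TPX2 (-0.22). The higher members were TOP2A (0.33), CENPA (0.32) and CENPF (0.31), of which CENPA and CENPF belong to the centromere and kinetochore. For AURKB the difference was -0.15 (interval -0.36 to 0.05) and for BIRC5 -0.10 (-0.28 to 0.09), neither called. The sum of squared errors left 9 lower and 0 higher, and the t distribution 11 and 1.

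The ANKRD52 knockout set against the AGO2 knockout had 2 members higher, ESPL1 (0.38) and CENPF (0.35), and 0 lower, where 3.75% of all genes were lower and 5.58% higher. Among genes of a mean log2 CPM of 6 or more, 4.5% were lower and 5.04% higher. At an unadjusted p under 0.05 there were 0 lower and 7 higher members. Both calls were lost with the sum of squared errors and with the t distribution, which left 0 higher and 0 lower.

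Among 114 further mitotic genes in 9 lists, 30 fell and 14 rose in the double knockout, 26.3% and 12.3%, against 20.1% and 22.9% of all genes and 24.6% and 22.0% of genes with a mean log2 CPM of 6 or more. The share that fell lies near that of genes at that level, and the share that rose lies below it. Some of the 114 are not at that level, such as OIP5 with a mean log2 CPM of 3.62. The lists below are small and were not tested against all genes. Of 6 other kinesins 4 fell. They were the chromosome arm motor KIF22 (-0.58), KIF20B (-0.47), KIF15 (-0.40) and KIF18B (-0.21), per the authors' deposited table. KIF22 also fell in the AGO2 knockout (-0.26, adjusted p = 0.0376), per the authors' deposited table. KIFC1 was not analysed here. Of 4 other condensin subunits 2 fell, NCAPD3 of condensin II (-0.53) and NCAPD2 of condensin I (-0.37), with NCAPG2 at -0.13 and NCAPH2 at -0.08 per the authors' deposited table. Of 18 APC/C subunits and inhibitors 7 fell and 0 rose by the authors' edgeR test, and 0 were higher at an unadjusted p under 0.05. They included the catalytic subunit ANAPC11 (-0.63), the chain-extending enzyme UBE2S (-0.98, uncertain because of near-identical copies), ANAPC15 (-0.47) and ANAPC5 (-0.38), per the authors' deposited table. In the ANKRD52 knockout 3 of the 18 fell, CDC26 (-0.61), ANAPC11 (-0.59) and UBE2S (-0.81), and 2 rose, CDC23 (0.40) and CDC27 (0.33), per the authors' deposited table. Among all genes 6.04% were called lower in that knockout and 7.62% higher. In the AGO2 knockout CDC23 (0.29) and CDC27 (0.25) rose, per the authors' deposited table, and 0 of the 18 fell by the authors' edgeR test, with 3 lower at an unadjusted p under 0.05. Among all genes 2.72% were called lower in the AGO2 knockout and 3.38% higher. CDC23, CDC26 and CDC27, subunits of the complex, were named after their values were seen.

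Of 28 further kinetochore genes 5 fell and 7 rose in the double knockout, 17.9% and 25%, near the shares of all genes. OIP5 and MIS18A, which help to load the centromeric histone, fell by 0.80 and 0.46, while CENPW rose by 0.76 and ZWINT by 0.38, per the authors' deposited table. Of 16 cohesin genes 4 fell, among them RAD21 (-0.30), STAG2 (-0.29) and SMC3 (-0.27), and the loader NIPBL rose (0.24), per the authors' deposited table. RAD21 also fell in the AGO2 knockout (-0.34, adjusted p = 0.0106), per the authors' deposited table. Of 15 centrosome genes NUMA1 (-0.23) and PCNT (-0.21) fell and HAUS8 (0.39) and CEP152 (0.27) rose, per the authors' deposited table. HAUS8 also rose in the ANKRD52 knockout (0.42, adjusted p = 0.000541), per the authors' deposited table. The centrosome genes, with 13.3% called in each direction, lay below the shares of all genes, and the cohesin genes, with 25% lower and 6.25% higher, lay near and below them. Of 8 genes that brake or time mitotic entry the Aurora A activator BORA fell (-0.28) and the phosphatase inhibitor ARPP19 rose (0.54), with GTSE1 at -0.14 and ENSA at -0.09, per the authors' deposited table. ARPP19 also rose in the ANKRD52 knockout (0.29, adjusted p = 0.0369), per the authors' deposited table. Of 7 cytokinesis genes RACGAP1 fell (-0.25) and SEPT9 (0.50) and CHMP4B (0.26) rose, with PDCD6IP at 0.15, per the authors' deposited table.

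Of 12 genes of the DREAM and MuvB complexes, which act on these promoters, 4 fell and 1 rose in the double knockout. Among all genes 20.1% were called lower and 22.9% higher, and this small list was not tested against them. TFDP1, a partner of E2F factors, fell by 0.55, the pocket protein RBL2 by 0.45 and E2F4 by 0.44, while LIN54, which contacts the CHR, rose by 0.64, per the authors' deposited table. CDKN1A, the p21 inhibitor of cyclin-dependent kinases, rose by 1.07 in the double knockout and 1.33 in the AGO2 knockout and stood at 0.14 in the ANKRD52 knockout, per the authors' deposited tables. Their part in the members' falls was not tested. By promoter element, 14 of 35 members with a CHR match and 8 of 10 without one fell in the double knockout, with median log2 fold changes of -0.13 and -0.30. With a CCAAT box 19 of 36 fell and without one 3 of 9, with medians of -0.24 and -0.08. Only TTTGAA and TTCGAA were searched for the CHR, so a member without a match is not shown to lack the element. These splits were not tested.

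Replication and licensing genes act earlier in the cycle. Of 28 genes 12 fell and 1 rose in the double knockout, 5 fell and 0 rose in the ANKRD52 knockout and 6 fell and 0 rose in the AGO2 knockout by the authors' edgeR test, with 4, 0 and 1 higher at an unadjusted p under 0.05. These are 42.9% lower and 3.57% higher in the double knockout, against 20.1% and 22.9% of all genes. In the ANKRD52 knockout 17.9% were lower, against 6.04% of all genes, and in the AGO2 knockout 21.4%, against 2.72%. Set against the ANKRD52 knockout, the double knockout had 3 of the 28 lower and 2 higher, 10.7% and 7.14%, below the 15.7% and 18.5% of all genes. The helicase genes MCM5 (-0.86), MCM4 (-0.73) and MCM2 (-0.48) and the licensing factor CDT1 (-0.36) fell in the double knockout, per the authors' deposited table. CDT1 also fell in the ANKRD52 and AGO2 knockouts, by 0.37 and 0.45 per the authors' deposited tables, and its double minus ANKRD52 difference was 0.01 (adjusted p = 0.946). MCM2 also fell in these 2 knockouts, by 0.27 and 0.35, and MCM5 fell by 0.32 in the AGO2 knockout, per the authors' deposited tables. The mitotic and replication lists were not tested against each other.

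Epithelial markers were abundant, from a mean log2 CPM of 7.10 for CDH1 to 11.18 for KRT8 per the authors' deposited table, apart from VIL1 at -0.40. Of 6 epithelial markers 5 rose in the double knockout, among them VIL1 (5.91), KRT18 (1.55), KRT8 (1.53) and KRT19 (1.24), per the authors' deposited table. Among all genes 22.9% were called higher in that knockout. Of 4 markers of other cell types LYZ (6.77), VWF (2.25) and ACTA2 (0.76) rose and COL1A1 stood at 0.24, at mean log2 CPM of 1.21, 0.11, 3.42 and 3.67, per the authors' deposited table. VIL1 and LYZ had implied levels of 0.0485 and 0.0788 CPM in parental cells, so their large fold changes start from very low levels. PTPRC, CD3E, PECAM1 and CDX1 were not analysed here. The part of these shifts in the members' falls was not tested.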

How the data were processed

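PolyA RNA of 12 libraries, 4 groups of 3 labelled replicates, was measured. The authors' software, as listed without roles in the submitters' processing notes, included edgeR 3.8.6, featureCounts 1.4.6 and TopHat2 2.0.12, with build hg19. Per the file headers, the authors deposited 3 tables with edgeR's column names, each a knockout against parental, with a log2 fold change, a mean log2 CPM, a likelihood ratio score and p-values. The deposited p-value was checked to be the chi-square tail of the score, and the adjusted one its Benjamini-Hochberg value, for 12756 of 12756 genes in each table. Per-sample values were not used here, and no source used here says whether replicates were separate cultures, so each p-value reflects library spread within the authors' model, which may be technical.

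The approximate SE is the absolute log2 fold change over the root of the score. Knockouts were compared by differences of log2 fold changes, their variance taken as the average of both squared SEs, with a two-sided normal test and Benjamini-Hochberg adjustment over the 12753, 12753 and 12752 genes with an SE. The difference test was run on simulated data with known changes and normal errors of equal size in each group. Averaging the squared SEs assumes that equality, which the simulation did not check. Calls use an adjusted p under 0.05. Intervals are normal 95% intervals. Alternatives were a threshold of 0.01, the F distribution with 1 and 8 and the t distribution with 8 degrees of freedom, a fold minimum, an expression minimum, centring and the sum of squared SEs.

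Members and lists were chosen with earlier results of these data known, and no list was tested as a set. Named with values were all called members, the lowest and highest of each role group, the 12 largest called changes in the double knockout with full statistics, the targeted genes, and up to 4 genes of smallest p from each other list. The remaining members were named to account for all 52. The background of genes with a mean log2 CPM of 6 or more was chosen after seeing the data. Promoters are RefSeq windows of GRCh38.p14, matched by symbol, which is not the authors' build. Versions were matplotlib 3.10.9, pandas 2.3.3, scipy 1.17.1, numpy 2.4.6 and Python 3.11.15.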

Additional observations from a re-analysis of the deposited data

How the results depend on the processing

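An expression minimum (mean log2 CPM of 1) and centring on the median of all genes kept each count of called members within 1.5 times, and no value was reversed under any alternative run. All 52 members met that minimum, and the medians of all genes ran from -0.005 to 0.011. Both settings could therefore change the counts little. At an adjusted p under 0.01, 17 members were lower and 0 higher in the double knockout and 0 were higher in the AGO2 knockout; 1 was higher in the double against the AGO2 knockout and 1 in the ANKRD52 against the AGO2 knockout. With the F distribution 16 members were lower and 0 higher in the double knockout and 0 higher in the AGO2 knockout. An absolute log2 fold change of at least 0.5 left 2 lower and 0 higher in the double knockout and 0 higher in the AGO2 knockout. Against the ANKRD52 knockout the double had 11 lower members with the sum of squared errors and 16 with the t distribution. Against the AGO2 knockout it had 9 and 11 lower and 0 and 1 higher, and the ANKRD52 knockout had 0 higher against the AGO2 knockout under both. Each of these settings is stricter by construction. Taking the mean, centring, or members of a mean log2 CPM of 5 or more gave -0.19, -0.21 and -0.23 for the median of -0.20 in the double knockout, 0.03, 0.05 and 0.06 for 0.05 in the ANKRD52 knockout, and -0.05, -0.08 and -0.07 for -0.08 in the AGO2 knockout, each within the members' median SE (0.10 in each table). This SE is that of single genes, not of a median, and is larger than the size of the medians in the AGO2 and ANKRD52 knockouts. Lying within it does not show that those medians are stable. No paired analysis was possible because the tables hold no values per sample, and leaving out each replicate was not run for the same reason. The depth is unknown.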
